A study of Homo sapiens with 14 samples.

Results

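Glycolysis breaks glucose down to pyruvate, and the cell then either reduces pyruvate to lactate and exports it or oxidises it in the mitochondria through pyruvate dehydrogenase. Most steps are carried out by one of several isozymes, encoded by different genes, and the pyruvate dehydrogenase kinases switch pyruvate dehydrogenase off. Tumour cells, colorectal cancer among them, are known for high glucose uptake and lactate release, and several genes of the pathway are known targets of the hypoxia-inducible factors. The 34 genes described here cover glucose uptake, every step from hexokinase to pyruvate kinase, the regulators of phosphofructokinase, a pair of gluconeogenic enzymes, lactate formation and transport, and the entry of pyruvate into the mitochondria. They were picked by gene symbol as members of the pathway, and all 34 were found among the 36601 genes of the single-cell tables and the 60624 genes of the bulk tables.

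The study followed SW620, a human colorectal cancer line derived from a lymph node metastasis, through a long culture without passage, in which single cells grew into colonies until day 15. In the single-cell libraries, the cells labelled SW620 carried an empty FLAG vector according to the study. For the bulk libraries this is not stated in the sources used here. SW620-TET2CD cells overexpressed the catalytic domain of TET2, an enzyme that oxidises methylated cytosine in DNA. Single-cell RNA-seq covered both lines on days 6, 9, 12 and 15, with 1 library for each line and day (8 libraries). Bulk RNA-seq covered 6 libraries, namely SW480 (a line from the primary tumour) and SW620 on day 6, and SW620 and SW620-TET2CD on day 15, each split by a cell strainer into cells from inside and from outside the colonies. The study describes the inside and outside cells as separated from a digested suspension, and nothing else says whether libraries came from separate cultures. With 1 library per line and day, days and lines stood in for replicates. Each p-value thus measures the spread between these libraries, which may hold technical, day and line differences. The transgenic cells are treated as they are labelled, and whether each line is 1 clone or a pool is not stated in the sources used here.

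Across the 8 single-cell libraries 3894 to 8154 cells were kept, with 48186195 to 74185723 UMIs (unique molecular identifiers, 1 per captured transcript) in each library. Levels are given as CPM, the UMIs of a gene summed over the kept cells and scaled to the same total in each library, and 3 UMIs corresponded to 0.0404 to 0.0623 CPM. TET2 was at 2.11 to 3.90 CPM in SW620 and 40.2 to 106.6 CPM in SW620-TET2CD, as the labels have it. The 8 epithelial markers summed to 9414 to 14040 CPM, although KRT20 stayed under 1 CPM. The 3 endothelial markers summed to at most 1.39 CPM. The 6 fibroblast markers, mainly LUM, summed to 16.6 to 28.7 CPM on days 6 and 9 and 8.37 to 12.9 CPM on days 12 and 15, and the 5 immune markers summed to 7.56 to 17.4 CPM on days 6 and 9 and 23.9 to 57.7 CPM on days 12 and 15. That immune sum was nearly all LYZ and CD68, while PTPRC, the defining leukocyte gene, was at most 0.0197 CPM in any library, and the part of these genes in the results was not tested. Pairs of libraries shared 11 to 31 cell barcodes, at most 0.440% of the smaller library.

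In the rest of the text, days 6 and 9 are called early and days 12 and 15 late. The early and late libraries differed in much besides glycolysis. Cells with UMIs of cell-cycle genes (at least 2 UMIs of 20 such genes, making up at least 0.1% of the cell's UMIs) were 72.1% to 84.8% of the early cells and 6.28% to 18.0% of the late cells, and ribosomal protein genes took 22.6% to 23.6% of the early and 25.3% to 28.2% of the late UMIs.

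Because several of the genes are known targets of the hypoxia-inducible factors, which bind the core letters ACGTG or GCGTG, the promoters (250 bases before to 50 after a start site, RefSeq, GRCh38.p14) were searched for these 5-letter words on both strands. A match on the opposite strand reads CACGT or CACGC, and the palindrome CACGTG holds a match on each strand, so that it counts as 2. A promoter sequence was found for 31 of the 34 genes, and SLC2A3, SLC16A1 and PFKFB2 were not in that table. A match stood in 38 of the 61 promoters of these genes (62.3%), against 48.4% of all 35116 promoters. Counted by gene, 28 of 31 genes (90.3%) had at least 1 promoter with a match, against 52.4% of 27305 genes, and genes with several start sites had more chances. Among the genes that were called higher on days 12 and 15, 13 of 13 with a promoter sequence had a match, as did 5 of 6 that were lower late and 10 of 12 that were not called, so the match was common in all 3 groups. The printed promoters show 3 genes that were higher late (ALDOC, PGK1 and SLC2A1, with 5, 4 and 1 matches), 1 that was lower late (PDHA1, with 4 matches) and 1 that was not called (LDHA, with 6 matches). Matches are in capitals and the strand is that of the gene.
ALDOC (chr17:28576846-28577145, minus strand): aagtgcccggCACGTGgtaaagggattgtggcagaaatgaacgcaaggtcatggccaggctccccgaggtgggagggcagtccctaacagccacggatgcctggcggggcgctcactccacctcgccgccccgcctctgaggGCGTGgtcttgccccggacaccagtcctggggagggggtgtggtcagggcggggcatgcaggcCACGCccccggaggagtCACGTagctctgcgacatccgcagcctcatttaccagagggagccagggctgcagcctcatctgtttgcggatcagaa
PGK1 (chrX:78103998-78104297, plus strand): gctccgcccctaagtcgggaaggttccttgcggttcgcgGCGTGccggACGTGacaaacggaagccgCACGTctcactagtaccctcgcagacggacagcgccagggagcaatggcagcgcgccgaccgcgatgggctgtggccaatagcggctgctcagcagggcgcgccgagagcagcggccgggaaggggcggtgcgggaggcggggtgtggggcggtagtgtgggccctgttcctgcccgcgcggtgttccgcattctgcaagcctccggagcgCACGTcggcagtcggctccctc
SLC2A1 (chr1:42958819-42959118, minus strand): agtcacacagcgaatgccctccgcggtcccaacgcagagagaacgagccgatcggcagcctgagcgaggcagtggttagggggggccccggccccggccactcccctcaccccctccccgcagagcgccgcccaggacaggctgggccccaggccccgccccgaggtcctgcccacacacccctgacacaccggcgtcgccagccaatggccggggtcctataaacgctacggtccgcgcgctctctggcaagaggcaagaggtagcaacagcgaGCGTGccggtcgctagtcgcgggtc
PDHA1 (chrX:19343677-19343976, plus strand): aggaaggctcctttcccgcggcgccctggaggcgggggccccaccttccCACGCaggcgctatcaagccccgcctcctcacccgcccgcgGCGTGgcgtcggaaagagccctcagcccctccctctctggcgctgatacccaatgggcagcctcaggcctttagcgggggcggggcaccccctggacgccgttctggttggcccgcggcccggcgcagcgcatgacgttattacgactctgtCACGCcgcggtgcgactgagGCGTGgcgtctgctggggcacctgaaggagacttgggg
LDHA (chr11:18394313-18394612, plus strand): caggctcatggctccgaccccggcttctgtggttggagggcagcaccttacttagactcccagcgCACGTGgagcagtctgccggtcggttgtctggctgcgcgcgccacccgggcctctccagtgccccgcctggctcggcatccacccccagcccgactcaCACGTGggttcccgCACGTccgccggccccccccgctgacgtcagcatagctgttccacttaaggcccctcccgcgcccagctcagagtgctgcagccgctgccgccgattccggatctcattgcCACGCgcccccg

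Between the early and late libraries the genes moved in both directions, in a share near that of all genes. Of the 34 genes, 14 were higher late, 7 were lower and 13 did not pass the test (edgeR quasi-likelihood test with line as a block, Benjamini-Hochberg adjusted p over 16993 genes, threshold 0.05). In the same fit 29.4% of all genes were called higher, 28.3% lower and 57.7% either way, so 21 calls among 34 genes were near that background. Steps of the pathway were not tested against each other, and their counts are a description. The median log2 fold change was 0.21 for the 34 genes and 0.04 for all genes. Both glucose transporters and both hexokinases were higher, as were 2 of the 3 fructose 2,6-bisphosphate enzymes, GPI, PFKP and both aldolases. In lower glycolysis PGK1 and ENO2 were higher while PGAM1, ENO1 and PKM were lower. None of the 4 lactate genes and neither pyruvate dehydrogenase subunit was higher, and of those 6 genes LDHB, SLC16A1, PDHA1 and PDHB were lower. Counted by library, all 4 late libraries lay above all 4 early ones for 14 of the 34 genes (29.7% of all genes with 80 or more UMIs) and below for 4 (22.2%).

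**Figure D1:**
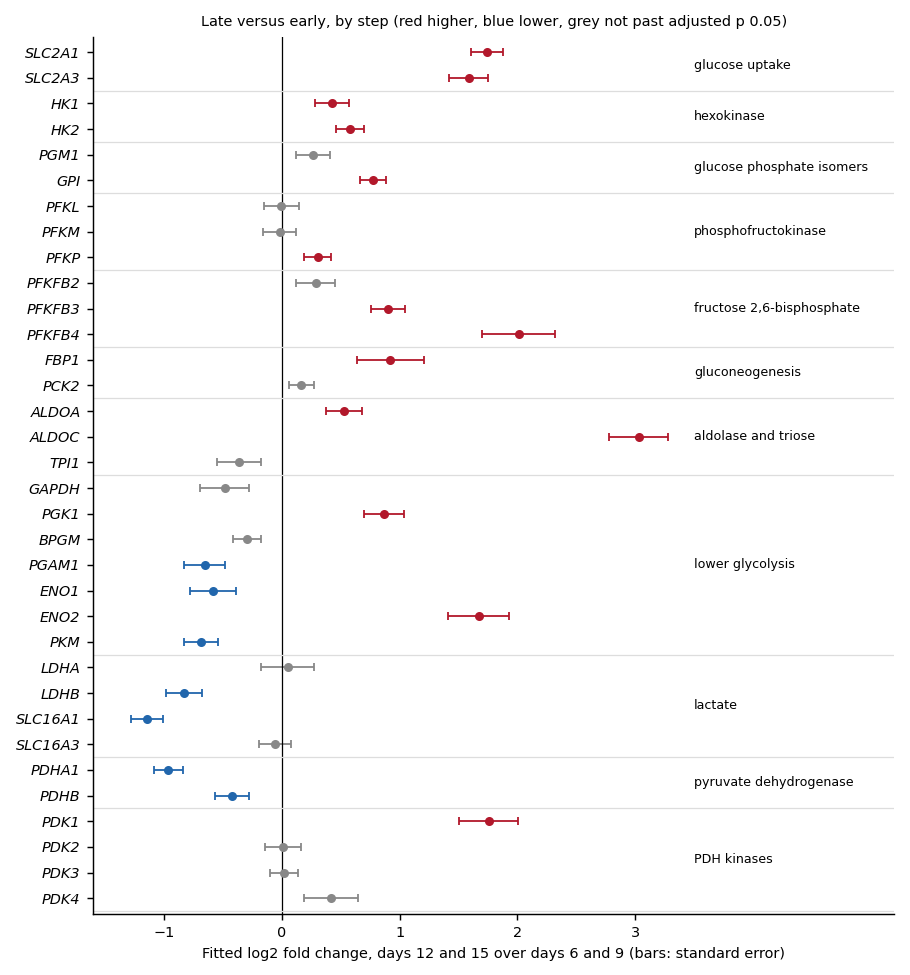
Fitted log2 fold change of late (days 12 and 15) over early (days 6 and 9) single-cell libraries for the 34 genes, with the standard error as bars, grouped by step. The genes from glucose uptake to the fructose 2,6-bisphosphate enzymes lie at or to the right of 0, while those of pyruvate dehydrogenase and LDHB, SLC16A1 and PKM lie to the left.

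Both genes of glucose uptake were higher late, in both lines. SLC2A1 (chr1:42925353-42958893), the main basal glucose transporter, was at 168, 224, 661 and 728 in SW620 and 146, 175, 547 and 633 in SW620-TET2CD on days 6, 9, 12 and 15, in CPM. The 4 late libraries were all above the 4 early ones, and the log2 fold change was 1.74 (SE 0.14, adjusted p = 1.08e-05). SLC2A3 (chr12:7919230-8019007), a transporter with a high affinity for glucose, was at 16.9, 21.4, 53.6 and 52.0 in SW620 and 13.9, 9.15, 44.7 and 43.8 in SW620-TET2CD on days 6, 9, 12 and 15, in CPM. Its early and late values did not overlap either, and its log2 fold change was 1.59 (SE 0.16, adjusted p = 3.87e-05). SLC2A3 has a close copy, SLC2A14, which stayed at or below 0.108 CPM. Of the hexokinases, which trap glucose in the cell as glucose 6-phosphate, HK1 was at 19.0 to 26.9 CPM early and 28.9 to 43.9 CPM late, and HK2 at 11.03 to 12.4 CPM early and 14.1 to 23.3 CPM late. Both were called higher with smaller changes, by 0.42 for HK1 and 0.58 for HK2 on the log2 scale, and the call for HK1 was lost in 5 of the 17 alternatives, all of which left out a library.

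Of the 8 genes of upper glycolysis after hexokinase, 4 were called higher (GPI, PFKP, PFKFB3 and PFKFB4), none was called lower and 4 were not called. GPI, which turns glucose 6-phosphate into fructose 6-phosphate, was at 136.5 to 155.7 CPM early and 223.4 to 306.7 CPM late (log2 fold change 0.78, SE 0.11, adjusted p = 2.26e-04). PFKP, a phosphofructokinase isozyme, rose by 0.30 on the log2 scale, a call lost in 8 of 17 alternatives, and PFKL (-0.0032), PFKM (-0.017) and PGM1 (0.26), which interconverts glucose 1- and 6-phosphate, were not called. PFKFB4 (chr3:48517684-48562015), which makes and breaks down the phosphofructokinase activator fructose 2,6-bisphosphate, was at 1.96, 5.18, 13.7 and 8.87 in SW620 and 1.95, 3.03, 17.1 and 12.7 in SW620-TET2CD on days 6, 9, 12 and 15, in CPM. Every late library lay above every early one, although day 15 was below day 12 in both lines, and the log2 fold change was 2.01 (SE 0.31, adjusted p = 3.80e-04). PFKFB3, which mainly makes that activator, was at 4.85 to 5.37 CPM early and 7.53 to 13.1 CPM late, with a log2 fold change of 0.90 (SE 0.15, adjusted p = 4.85e-04). PFKFB2 was not called (0.29).

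Aldolase splits fructose 1,6-bisphosphate into both trioses. ALDOC (chr17:28573115-28576948) had the largest fold change of the 34 genes. Its level was 1.75, 4.30, 20.8 and 26.4 in SW620 and 2.32, 2.89, 26.4 and 24.6 in SW620-TET2CD on days 6, 9, 12 and 15, in CPM. Early and late libraries lay far apart, and the log2 fold change was 3.03 (SE 0.25, adjusted p = 1.40e-05). The annotated gene RSKR spans ALDOC on the same strand, so its reads may be split or dropped in counting. ALDOA, the main aldolase of most tissues, was at 13.0, 12.1, 20.1 and 21.8 in SW620 and 14.3, 10.6, 19.4 and 16.7 in SW620-TET2CD on days 6, 9, 12 and 15, in CPM, with a log2 fold change of 0.53 (SE 0.15, adjusted p = 0.0114), a call lost with every barcode kept (0.39). That level is uncertain, since an overlapping gene on the same strand (ENSG00000285043) can make reads ambiguous, and ALDOA was at 409.2 to 1090.1 TPM (scaled by transcript length and to the same total in each library) in the bulk libraries. TPI1, which interconverts the trioses, was at 1173 to 1456 CPM early and 893.5 to 1542 CPM late and was not called (log2 fold change -0.36, SE 0.18, adjusted p = 0.115).

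In lower glycolysis genes were called in both directions. PGK1, which makes ATP from 1,3-bisphosphoglycerate, was at 445.5 to 528.1 CPM early and 764.4 to 1304 CPM late (0.87, SE 0.17, adjusted p = 0.00141 on the log2 scale). ENO2 (chr12:6913745-6923698), the enolase best known from neurons, was at 14.3, 22.5, 44.5 and 76.9 in SW620 and 14.2, 16.8, 35.0 and 75.5 in SW620-TET2CD on days 6, 9, 12 and 15, in CPM. Unlike PFKFB4 it was highest on day 15 in both lines, and its log2 fold change was 1.67 (SE 0.26, adjusted p = 3.74e-04). ENO1, the enolase of most tissues, was at 1208 to 1479 CPM early and 727.2 to 1451 CPM late, so that the periods overlapped. Its log2 fold change of -0.59 (SE 0.20, adjusted p = 0.0254) was not held in 8 of 17 alternatives. PGAM1, the phosphoglycerate mutase, fell by 0.65 on the log2 scale, and PKM, the pyruvate kinase, was at 1002 to 1190 CPM early and 672.8 to 912.4 CPM late (-0.68, SE 0.14, adjusted p = 0.00219). GAPDH, the most abundant of the 34 genes in UMIs, was at 4742 to 5649 CPM early and 2749 to 5467 CPM late and was not called (-0.49, SE 0.21, adjusted p = 0.0651). BPGM, which makes 2,3-bisphosphoglycerate, was not called either. GAPDH, TPI1, PGK1, ENO1 and LDHA have processed pseudogenes of near-identical sequence, with which their reads may be shared.

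For the fate of pyruvate, the genes called lower were a lactate transporter, a lactate dehydrogenase subunit and both pyruvate dehydrogenase subunits, and the gene called higher was a kinase of that enzyme. SLC16A1 (chr1:112911847-112957593), which encodes the monocarboxylate transporter MCT1, was at 72.6, 61.8, 33.97 and 24.6 in SW620 and 64.6, 58.4, 37.2 and 30.5 in SW620-TET2CD on days 6, 9, 12 and 15, in CPM. All late values were below all early ones (log2 fold change -1.15, SE 0.14, adjusted p = 8.36e-05). SLC16A3, which encodes the exporter MCT4, was at 113.6 to 151.7 CPM early and 116.4 to 146.2 CPM late and was not called. LDHB (chr12:21635342-21757857), the lactate dehydrogenase subunit of oxidative tissues, was at 1207, 1001, 725 and 549 in SW620 and 1211, 1029, 827 and 604 in SW620-TET2CD on days 6, 9, 12 and 15, in CPM. It was lower in each later library of a line, and its log2 fold change was -0.83 (SE 0.15, adjusted p = 0.00102). LDHA (chr11:18394560-18408425), the subunit of glycolytic tissues, was at 1188, 1097, 1289.6 and 866 in SW620 and 1072, 883, 1737 and 859.6 in SW620-TET2CD on days 6, 9, 12 and 15, in CPM. Day 12 was the highest and day 15 the lowest day in both lines, and LDHA was not called (0.05, SE 0.23, adjusted p = 0.858).

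PDHA1, the catalytic subunit gene of pyruvate dehydrogenase, was at 155.3 to 181.0 CPM early and 86.0 to 105.6 CPM late (log2 fold change -0.96, SE 0.12, adjusted p = 1.18e-04). PDHB was lower by less, with -0.42 (SE 0.15, adjusted p = 0.0286), a call lost in 5 of 17 alternatives. PDK1 (chr2:172555373-172608669), a kinase that inactivates pyruvate dehydrogenase, was at 7.22, 11.8, 31.3 and 18.7 in SW620 and 5.78, 8.82, 40.9 and 33.3 in SW620-TET2CD on days 6, 9, 12 and 15, in CPM. It peaked on day 12 in both lines, with all late values above all early ones and a log2 fold change of 1.76 (SE 0.25, adjusted p = 2.14e-04). The other kinases PDK2, PDK3 and PDK4 were not called, and PDK4 was under 1 CPM in every library. Of the gluconeogenic genes, FBP1 was called higher late and PCK2 was not, and FBP1 is taken up with the comparison of lines.

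**Figure D2:**
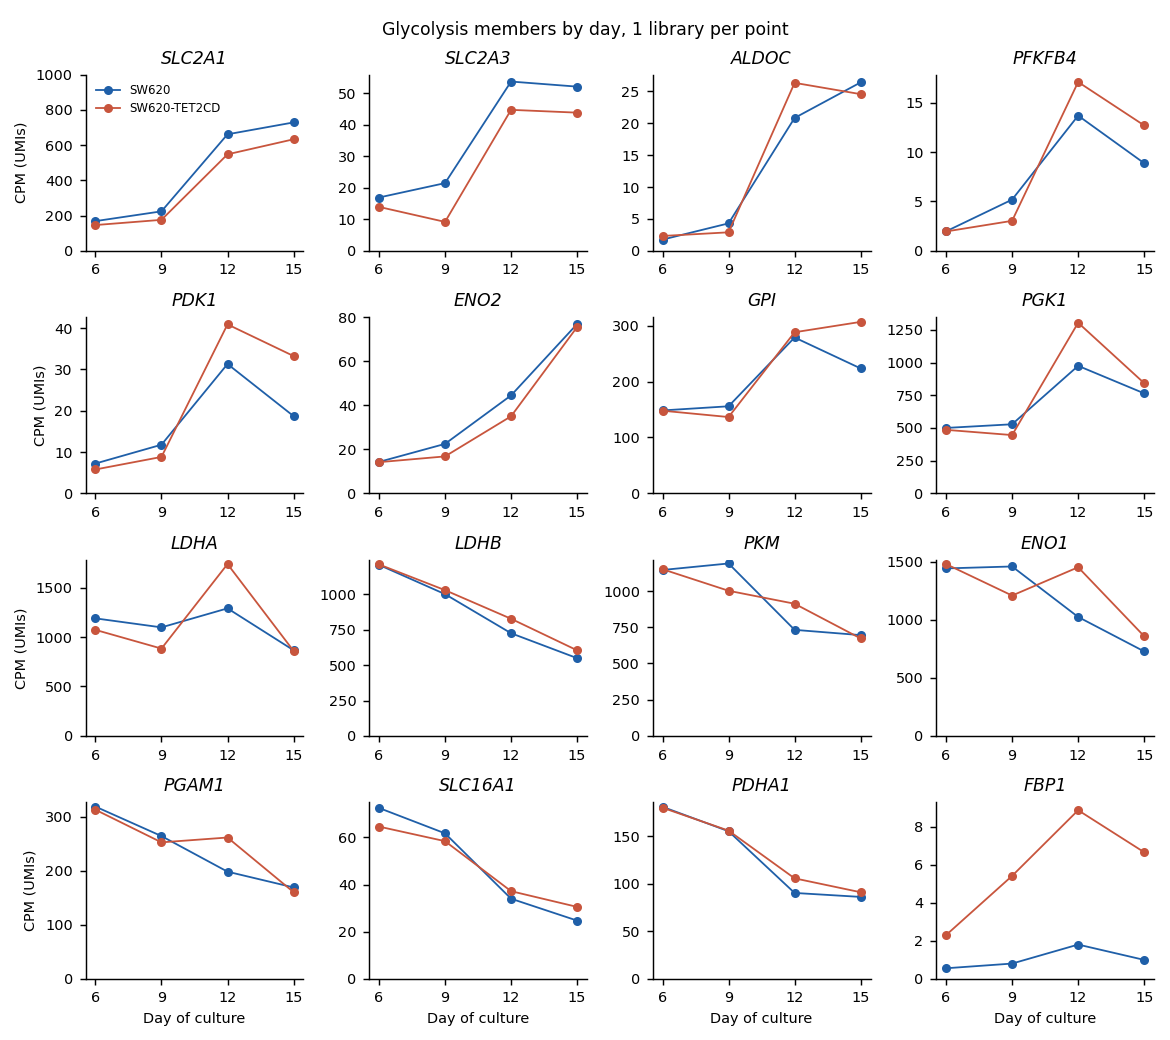
CPM of 16 of the genes on days 6, 9, 12 and 15, with SW620 in blue and SW620-TET2CD in red and 1 library per point. SLC2A1, SLC2A3, ALDOC, PFKFB4 and PDK1 step up between days 9 and 12, LDHB, SLC16A1 and PDHA1 go down, and FBP1 is above in SW620-TET2CD on every day.

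Of the 21 calls, 14 held in all 17 alternatives and none changed direction. The late libraries held fewer cells of the cell-cycle class (above). In cells outside the cell-cycle class, 13 genes were higher late and 5 lower, where 3464 and 3318 of all 15781 tested genes were, and 18 of the 21 calls were made there too, all 18 in the same direction. The calls for PGAM1, ENO1 and FBP1 were lost there. Cells outside the class could still hold cell-cycle UMIs. In SW620, 60 of the 967 such cells had none on day 6, against 3254 of 6390 on day 15. The periods thus still differed in cell-cycle UMIs outside the class, and the part of the cell cycle in the late change was not tested. With upper-quartile factors in place of TMM factors the median of all genes moved to 0.21 on the log2 scale, and the split of the 34 genes became 17 higher and 5 lower, against 37.7% higher and 21.8% lower of all genes.

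Among the steps between sampled days, the most genes were called from day 9 to day 12. Of the genes called late, however, ENO1, ENO2, PGAM1, PDHB and HK1 changed more from day 12 to day 15. ENO1 changed by -0.24 and then -0.62 on the log2 scale, and PDHB by -0.10 and then -0.42. An unadjusted edgeR p under 0.05 was found for 19 of the 34 genes from day 9 to day 12, against 8849 of all 17478. From day 12 to day 15 it was found for 18 of the 34, against 5185 of all 17478. From day 6 to day 9 no gene of the 34 passed the edgeR test, where the smallest adjusted p was 0.0606. Of all genes, 0.538% were called higher and 0.349% lower. An unadjusted edgeR p under 0.05 was found there for 7 of the 34 genes, against 2798 of all 17478. DESeq2 called 1 of the 34 (356 of 14403 genes in all). From day 9 to day 12, 13 genes were higher and 4 lower, against 20.2% and 21.9% of all genes. With upper-quartile factors 18 were higher and 2 lower, where 5027 genes in all were higher and 2681 lower. The largest were ALDOC (log2 fold change 2.61), PFKFB4 (1.80), PDK1 (1.68), SLC2A3 (1.65), SLC2A1 (1.48) and PGK1 (1.11), and the lower ones were SLC16A1, PDHA1, PKM and LDHB. From day 12 to day 15, ENO2 was higher (0.98, SE 0.14, adjusted p = 0.00258) and LDHA (-0.79, SE 0.21, adjusted p = 0.0345) and PDK2 (-0.49, SE 0.13, adjusted p = 0.034) were lower, where 6.56% of all genes were called higher and 6.4% lower. In that step 27 of the 34 fitted changes were negative, and negative changes were not counted over all genes. Leaving out a library of day 12 or day 15 left 1 library for that day. The median fitted change of the 34 genes was -0.25 with all libraries, -0.43 without SW620 day 12 and -0.11 without SW620-TET2CD day 12. Without SW620 day 6, which is not part of this step, that median was -0.26. The median of all genes was 0.013 with all libraries, -0.0070 without SW620 day 12 and 0.029 without SW620-TET2CD day 12. With upper-quartile factors and all libraries, the medians were -0.31 for the 34 genes and -0.04 for all genes. PGK1, the other gene past 2-fold from day 9 to day 12, was at 500.1, 528, 975 and 764 in SW620 and 486, 446, 1304 and 842 in SW620-TET2CD on days 6, 9, 12 and 15, in CPM, so that day 15 lay between day 9 and day 12.

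In 7 of the 11 isozyme pairs looked at, early and late shares did not overlap, although no pair could pass 0.05 in its test (below). UMIs are counted once per transcript at its 3′ end and are not scaled by length, and the share of a gene in its pair was followed across libraries. LDHA made up 46.2% to 52.3% of LDHA and LDHB UMIs early and 58.7% to 67.7% late. ALDOC made up 11.9% to 26.1% of the aldolase pair early and 50.9% to 59.5% late, with the doubt about ALDOA given above. ENO2 went from 0.948% to 1.52% of the enolase pair to 2.35% to 9.56%. SLC16A3 went from 61.4% to 71.1% of the pair with SLC16A1 to 78.7% to 83.6%. For the regulators, PDK1 was 35.3% to 53.5% of the pair with PDK2 early and 66.2% to 77.6% late, and 23.1% to 33.95% of the pair with PDK3 early and 48.8% to 60.5% late. PFKFB4 was 28.7% to 49.1% of the pair with PFKFB3 early and 53.0% to 58.8% late. In these 7 pairs no late library overlapped the early ones. How often other pairs of genes do so was not counted, and the shares restate the gene values above. Between early and late, LDHA (0.05 on the log2 scale) and SLC16A3 (-0.055) were not called, while LDHB (-0.83) and SLC16A1 (-1.15) fell. From day 9 to day 12, however, LDHA changed by 0.50 and LDHB by -0.51. The LDHA share on day 12 thus went with a higher LDHA as well as a lower LDHB.

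The pairs whose order of UMIs changed take in PDK2 and PDK3. PDK2 was at 11.1, 10.3, 14.4 and 9.57 in SW620 and 10.6, 10.9, 13.2 and 9.62 in SW620-TET2CD on days 6, 9, 12 and 15, in CPM. PDK3 was at 21.5, 22.9, 20.7 and 19.6 in SW620 and 19.2, 20.1, 26.7 and 25.2 in SW620-TET2CD on days 6, 9, 12 and 15, in CPM. PFKFB3 was at 4.88, 5.37, 9.58 and 7.53 in SW620 and 4.85, 5.13, 13.1 and 11.3 in SW620-TET2CD on days 6, 9, 12 and 15, in CPM. PDK1 was above PDK2 in all late libraries and in SW620 on day 9, and above PDK3 in all late libraries except that PDK1 stayed just under PDK3 in SW620 on day 15. PFKP was at 47.4, 55.8, 61.7 and 67.1 in SW620 and 52.0, 45.9, 67.4 and 72.0 in SW620-TET2CD on days 6, 9, 12 and 15, in CPM. PFKL was at 37.2, 46.6, 46.5 and 34.2 in SW620 and 36.6, 46.3, 56.8 and 43.3 in SW620-TET2CD on days 6, 9, 12 and 15, in CPM. PFKP was above PFKL except in SW620-TET2CD on day 9, where it was just below.

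The late minus early difference of the log2 ratio was 2.18 for ALDOC over ALDOA, 2.17 for ENO2 over ENO1, 1.66 and 1.63 for PDK1 over PDK2 and PDK3, 1.07 for SLC16A3 over SLC16A1, 0.96 for PFKFB4 over PFKFB3 and 0.84 for LDHA over LDHB. Each had p = 0.0556 in a two-sided exact permutation test of the days within each line (36 arrangements), the smallest p this design allows, and 0.0873 after adjustment over 11 pairs, so that none could pass 0.05. The hexokinase pair differed by 0.12 (exact permutation p = 0.722), PFKP over PFKL by 0.31 (exact permutation p = 0.222) and SLC2A3 over SLC2A1 by -0.20 (exact permutation p = 0.444), and the share of HK2 was 29.1% to 36.8% early and 29.3% to 41.7% late.

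**Figure D3:**
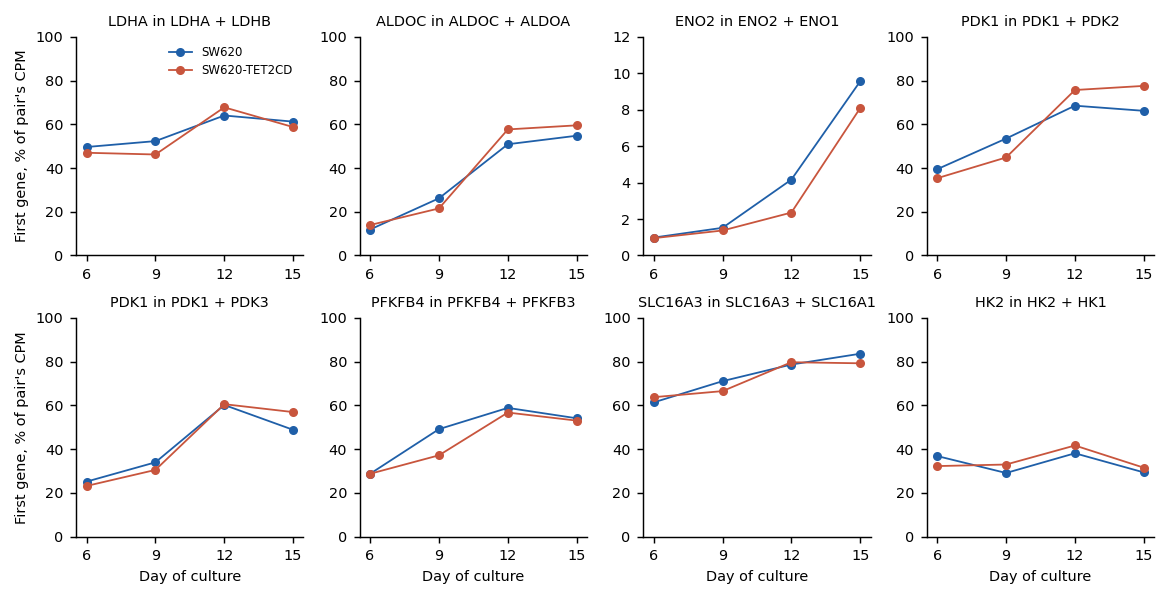
Share of the first gene in the summed CPM of its pair, in percent, by day, with SW620 in blue and SW620-TET2CD in red and 1 library per point (the ENO2 panel ends at 12%). The LDHA share lies at 46.2% to 52.3% early and 58.7% to 67.7% late, while the HK2 share shows no such step.

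Between the 10th and 90th percentile of cells, the share of the 34 genes spanned the most percentage points on day 12, at medians that differed between libraries. After thinning every cell to 2000 UMIs, the 34 genes together took a median of 1.30% of a cell's UMIs in both lines on day 6, 1.15% in SW620 and 1.5% in SW620-TET2CD on day 12, and 0.95% in both lines on day 15. The 10th and 90th percentiles of cells were 0.85% and 1.75% in both lines on day 6, 0.65% and 1.95% in SW620 on day 12, 0.85% and 2.40% in SW620-TET2CD on day 12, 0.55% and 1.55% in SW620 on day 15 and 0.50% and 1.55% in SW620-TET2CD on day 15. As a ratio of the 90th to the 10th percentile the spread was highest in SW620-TET2CD on day 15, so the order of days depended on the measure. Left out as too shallow were 18 to 89 cells per library. Without thinning the median was 1.31% (SW620) and 1.29% (SW620-TET2CD) on day 6, against 0.946% and 0.927% on day 15. Over all kept cells of SW620 together, the share was 1.32% on day 6 and 0.976% on day 15. Without GAPDH it was 0.818% and 0.642%, so this gene weighed heavily in the share.

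The spread over cells differed between genes and days. The variance of thinned UMIs over their mean is 1 for pure counting noise. Where cells differ beyond that noise, this ratio also rises with the mean, and the part of the level in the ratios was not tested. For PGK1 it was 1.01, 1.60, 2.42 and 1.90 in SW620 on days 6, 9, 12 and 15. In SW620-TET2CD it was 1.04, 1.33, 2.49 and 2.19, so it was already above the day 6 value on day 9. The ratio of SLC2A1 went from 1.13 on day 6 to 2.09 on day 15 for SW620 and from 1.17 to 2.15 for SW620-TET2CD. Its mean rose as well, from 0.340 to 1.57 UMIs per cell for SW620 and from 0.294 to 1.43 for SW620-TET2CD. The ratio of LDHA was 1.22, 1.64, 1.80 and 1.61 in SW620 on days 6, 9, 12 and 15. In SW620-TET2CD the ratio of LDHA was 1.17, 1.49, 1.77 and 1.44. PDHA1, with a low mean of 0.164 to 0.364 UMIs per cell, stayed at 0.993 to 1.04. Across cells of a library, thinned LDHA and PGK1 UMIs had a Pearson r of 0.02 and 0.05 on day 6 (5529 and 8123 cells). That r was 0.28 and 0.20 on day 9, 0.35 and 0.34 on day 12 (3908 and 3876 cells) and 0.27 and 0.27 on day 15. From day 6 to day 12, SLC2A1 and PGK1 went from -0.01 and 0.01 to 0.27 and 0.31, whereas LDHB and LDHA went from 0.08 and 0.09 to -0.10 and -0.07. On day 15, SLC2A1 and PGK1 had 0.19 and 0.33, and LDHB and LDHA had -0.08 and -0.11. These are descriptions, since cells share a library and its depth. After thinning, cells with a SLC2A1 UMI were 24.1% to 34.02% of cells early and 59.2% to 63.7% late, and cells with an ALDOC UMI 0.344% to 1.00% early and 4.30% to 5.57% late. Unthinned, the shares were 64.6% to 81.1% early and 85.8% to 94.6% late for SLC2A1, and 2.07% to 3.07% early and 16.9% to 25.1% late for ALDOC, with median depths of 6640 to 13479 UMIs per cell. No cell type that lacks these genes was present to give the background of free RNA.

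**Figure D4:**
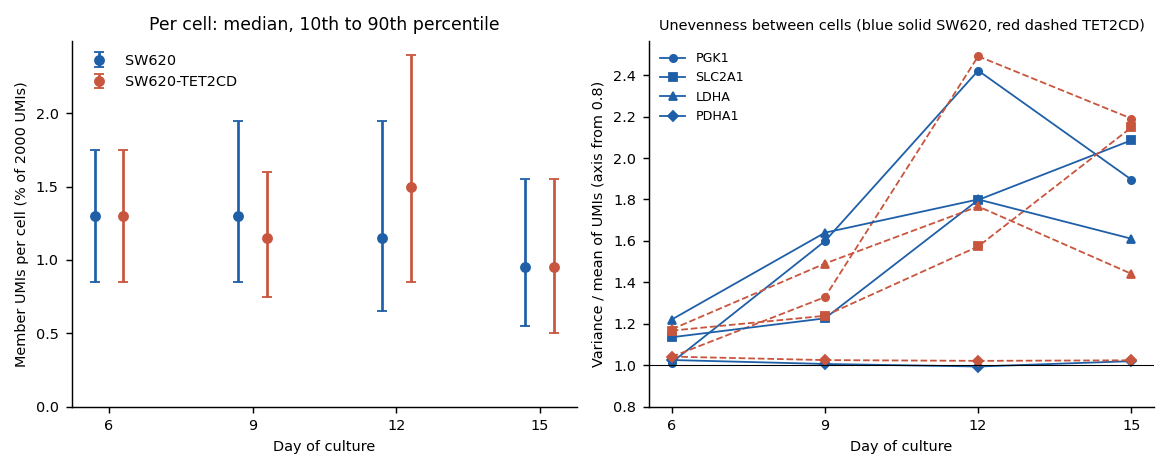
Left, share of the 34 genes in a cell's UMIs (percent of 2000 UMIs, median with 10th to 90th percentile of cells) by day and line. Right, variance over mean of UMIs per cell for 4 genes by day, with the axis from 0.8 and a line at 1. PGK1 goes from 1.01 and 1.04 on day 6 to 2.42 and 2.49 on day 12, and PDHA1 stays near 1.

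Within libraries, cells of the cell-cycle class were compared with the other cells (edgeR with library as a block, 16819 genes). Cells of the class were deeper in every library, for example with a median of 14006.5 against 10746 UMIs in SW620 on day 6 and 12462.5 against 8098 in SW620-TET2CD on day 15, and the part of depth in the result was not tested. There 15 of the 34 genes were higher in the class and 5 lower, against 27% and 27.6% of all genes. That balance depended on the scaling, since upper-quartile factors gave 12 higher and 13 lower (3173 and 6603 of all genes) and moved the members' median log2 fold change from 0.10 to -0.03. With TMM factors the lower ones were FBP1 (log2 fold change -0.94), ALDOC (-0.89), SLC2A1 (-0.67), SLC2A3 (-0.41) and PDK2 (-0.27). The higher ones took in PFKP (0.48), SLC16A1 (0.40), PGAM1 (0.40), LDHA (0.38), PDHA1 (0.38), ENO1 (0.36) and LDHB (0.35). Of the genes higher late, ALDOC, SLC2A1, SLC2A3 and FBP1 were thus lower in the class, whereas PFKP and HK1 were higher in both, although HK1 was not called in the class with upper-quartile factors (0.085, adjusted p = 0.194). Between 3.47% and 18.5% of cells lay near the limit of the class. With a class of all cells with at least 1 cell-cycle UMI and no limit on their share, 4 genes were higher and 5 lower, against 2558 and 1381 of all 17068 tested genes.

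SW620-TET2CD differed from SW620 in few of these genes in the single-cell libraries. With day as a block, 1 gene was higher (2.48% of all genes) and 1 lower (1.84%). FBP1 (chr9:94603133-94640249), which encodes fructose 1,6-bisphosphatase and runs against phosphofructokinase, was at 0.542, 0.790, 1.79 and 0.984 in SW620 and 2.29, 5.42, 8.88 and 6.66 in SW620-TET2CD on days 6, 9, 12 and 15, in CPM. It was higher in SW620-TET2CD on 4 of 4 days, with no overlap between the lines, and the log2 fold change was 2.38 (SE 0.15, adjusted p = 2.63e-06). The call held in every alternative that kept the block. The late rise of FBP1 over both lines was 0.92 (SE 0.28, adjusted p = 0.0178), a call lost in 7 of 17 alternatives with values down to 0.14, while its early values in SW620-TET2CD lay above its late values in SW620. SLC2A3 (values above) was the lower gene, with SW620-TET2CD under SW620 on 4 of 4 days (-0.60, SE 0.15, adjusted p = 0.0433). That call was lost without SW620 day 9 (-0.38 on the log2 scale), SW620-TET2CD day 9 (-0.39) or SW620 day 15 (-0.61), and without the 8% of cells with most UMIs (-0.59).

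The transgene was uneven over cells. In SW620-TET2CD, cells with at least 1 TET2 UMI had FBP1 at 3.91 CPM on day 6 (exact 95% Poisson interval 3.13 to 4.82), against 1.60 (1.27 to 1.98) in cells with none. Day 9 gave 11.6 CPM (10.1 to 13.3) with and 3.32 CPM (2.85 to 3.84) without a TET2 UMI. Day 12 gave 20.7 CPM (18.0 to 23.8) with and 5.82 CPM (5.08 to 6.64) without. Day 15 gave 15.7 CPM (13.4 to 18.4) with and 4.44 CPM (3.82 to 5.14) without. FBP1 was higher in the TET2-positive cells of all 4 SW620-TET2CD libraries. In SW620, TET2-positive cells held only 3 FBP1 UMIs on day 6 (1.53 CPM, against 0.51 in cells with none). They held 2 on day 12 (0.81 CPM against 1.84) and 0 on days 9 and 15. The intervals cover counting error only, the split was chosen after the FBP1 values were seen, and TET2-positive cells were also deeper (median 9261.5 against 8405 UMIs on day 6).

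Whether the late change differed between the lines was tested by an interaction of line and period. None of the 34 genes was called by edgeR (0% of all genes) or by DESeq2. None of them had an unadjusted edgeR p under 0.05, which 141 of all 17478 genes had. The median interaction was 0.17 on the log2 scale for the 34 genes and 0.00085 for all genes, and that of the 34 turned to -0.06 without SW620-TET2CD day 12. Simulated interactions of 1 on the log2 scale were recovered in 8.08% of cases and those of 2 in 66.0%, so differences of 2-fold were mostly not detectable.

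The bulk libraries of day 15 compared the lines and the place in the culture. In these, fewer cells of a kind and less RNA per cell cannot be told apart. TET2 was at 1.15 TPM inside the colonies and 1.29 TPM outside for SW620, and at 38.1 TPM and 124.3 TPM for SW620-TET2CD. In edgeR on the 4 libraries with the other factor as a block, no gene of the 34 was called between the lines. Of all genes, 0.288% were called higher and 0.124% lower. The smallest adjusted edgeR p of the 34 was 0.0708 (PFKP). An unadjusted edgeR p under 0.05 was found for 11 of the 34 genes, against 3536 of all 17722. DESeq2 called 6 of the 34 genes, all higher in SW620-TET2CD, where it called 2.22% of all genes higher and 2.27% lower. They were HK2, PFKP, ENO2, PDK1, SLC2A3 and FBP1, and their values follow with those of ALDOC, which had the largest late change in single cells. The count for edgeR was 13 without the SW620-TET2CD library from inside the colonies and 18 without that from outside, where 4191 of 18664 and 2950 of 18215 genes in all were called, and each of those fits had 1 SW620-TET2CD library and no block. Both SW620-TET2CD libraries lay above both SW620 libraries for 20 of the 34 genes (27.2% of all genes) and below for 3 (20.2%).

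FBP1 was at 4.35 inside and 2.79 outside the colonies in SW620 and 12.6 inside and 11.2 outside in SW620-TET2CD, in TPM (log2 fold change 1.80, SE 0.28, adjusted p = 0.0788), the same direction as in single cells. SLC2A3 was at 3.13 inside and 6.37 outside the colonies in SW620 and 60.8 inside and 31.3 outside in SW620-TET2CD, in TPM (3.12, SE 0.54, adjusted p = 0.0878). That direction was opposite to the single-cell libraries, where SLC2A3 was lower in SW620-TET2CD on every day. HK2 was at 18.3 inside and 22.1 outside the colonies in SW620 and 48.9 inside and 31.1 outside in SW620-TET2CD, in TPM (0.92, SE 0.26, adjusted p = 0.166). In TPM, PDK1 was at 7.96 inside and 8.88 outside the colonies in SW620 and 19.4 inside and 14.1 outside in SW620-TET2CD (0.83, SE 0.20, adjusted p = 0.131). The TPM of ENO2 was 31.4 inside and 33.1 outside the colonies in SW620 and 75.2 inside and 50.5 outside in SW620-TET2CD (0.78, SE 0.20, adjusted p = 0.142). In single cells its level in SW620-TET2CD was under that in SW620 on all 4 days, without passing the test (-0.31, SE 0.098, adjusted p = 0.125). PFKP was at 57.3 inside and 60.3 outside the colonies in SW620 and 90.3 inside and 101 outside in SW620-TET2CD, in TPM. ALDOC was at 7.60 inside and 5.21 outside the colonies in SW620 and 20.4 inside and 12.1 outside in SW620-TET2CD, in TPM. For all 7 genes the lowest SW620-TET2CD value was above the highest SW620 value, without passing the edgeR threshold. That separation was seen for 20 of the 34 genes and 27.2% of all genes. All but ALDOC were picked because DESeq2 called them higher in these same libraries, so it adds no support.

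Between cells from inside and outside the colonies none of the 34 genes was called by edgeR (0% of all genes were called) or by DESeq2. The smallest adjusted edgeR p of the 34 was 0.772. An unadjusted edgeR p under 0.05 was found for 2 of the 34 genes, against 1068 of all 17722. A p over the threshold does not show that the inside and outside cells were alike. Of the 34 genes, 9 were lower outside in both lines, 12 were higher outside in both and 13 went opposite ways. The same directions were not counted over all genes, so these counts are a description only. In SW620-TET2CD, LDHA was at 1298 TPM inside and 857.9 outside and SLC2A1 at 1163 inside and 743.0 outside, whereas in SW620 LDHA was at 648.7 and 724.2 and SLC2A1 at 624.0 and 657.3.

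Comparisons with day 6 had 1 library per group and no replicate check. By at least 2-fold on the log2(TPM + 1) scale, SW480 was higher than SW620 in 4 genes (16% of all genes) and lower in 1 (11.6%). SLC2A3 was at 437.5 TPM in SW480 and 4.17 TPM in SW620, ENO2 at 66.2 and 25.1, PFKM at 88.4 and 42.6 and PCK2 at 33.6 and 16.0, while BPGM was at 6.35 and 15.9. SW620 on day 15 inside the colonies was higher than SW620 on day 6 in PFKM and PCK2 (5.56% of all genes) and lower in PGAM1, PKM, LDHA and PDK3 (5.96%). Outside the colonies, PFKM, PCK2 and, exactly at 2-fold, PDK1 were higher (4.4%) and PDK3 was lower (5.56%). PDK3 was at 7.19 TPM on day 6 and 2.34 outside on day 15, whereas in CPM with TMM factors it was at 33.1 and 18.1, which is under 2-fold. Of the 6 genes that rose more than 2-fold in single cells, PDK1 and ENO2 were above their day 6 level in both SW620 libraries of day 15. PDK1 was at 3.94 TPM on day 6 and 7.96 (inside) and 8.88 TPM (outside) on day 15, and ENO2 at 25.1 TPM and then 31.4 and 33.1 TPM. PFKFB4 was at 15.7 TPM and then 16.3 and 13.2 TPM, and SLC2A3 at 4.17 TPM and then 3.13 and 6.37 TPM, so that day 6 lay between the libraries of day 15 in TPM, although in CPM with TMM factors PFKFB4 was at 26.4 and then 25.1 and 24.2. SLC2A1 was at 825.6 TPM on day 6 and 624.0 and 657.3 TPM on day 15, and ALDOC at 8.14 TPM and then 7.60 and 5.21 TPM. Scaled as CPM with TMM factors, however, ALDOC was at 8.16 on day 6 and 8.57 inside and 6.28 outside on day 15, so its direction inside the colonies depended on the scaling. GPI, also called higher late in single cells, was at 330.8 TPM on day 6 and 181.2 and 183.6 TPM on day 15. LDHA and LDHB were at 1335 and 1019.7 TPM on day 6, and at 648.7 and 990.8 TPM inside and 724.2 and 1228 TPM outside on day 15, so the LDHA share was lower on day 15 in bulk where it was higher in single cells. The kinds of library differ in chemistry and counting, and whether that bears on these opposite directions was not tested.

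**Figure D5:**
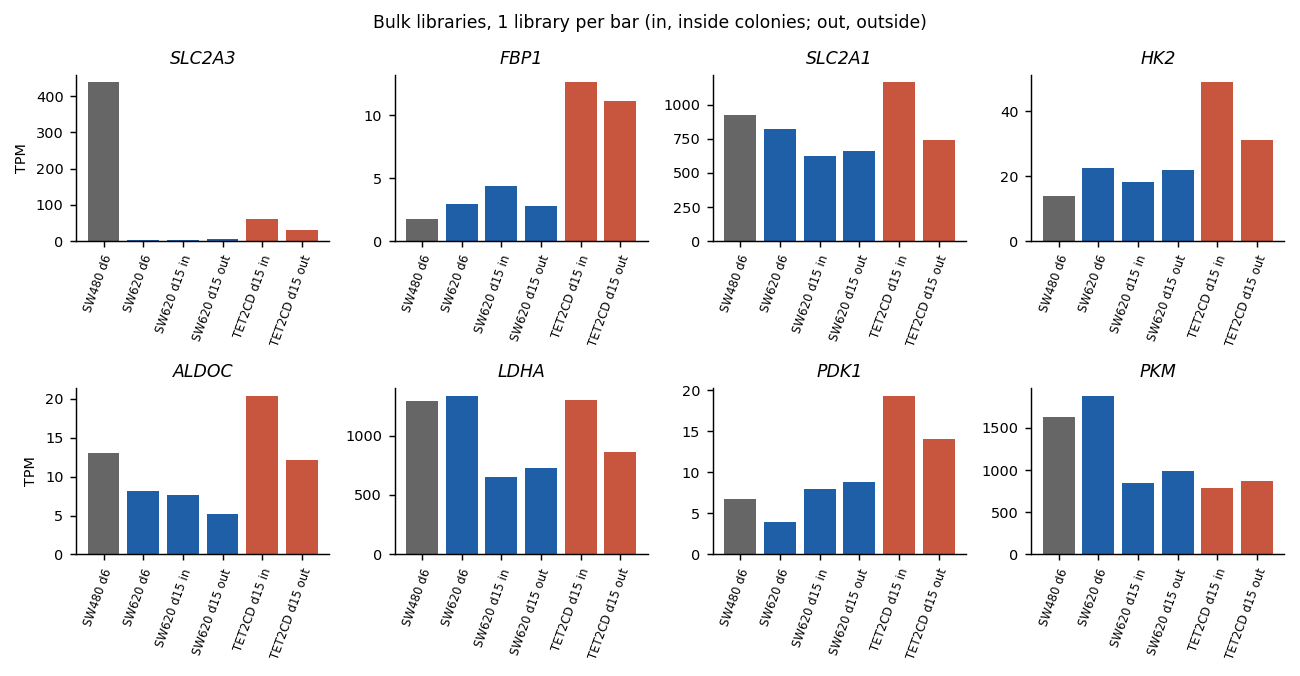
TPM of 8 genes in the 6 bulk libraries (grey, SW480; blue, SW620; red, SW620-TET2CD; in and out, inside and outside the colonies), with 1 library per bar. SLC2A3 stands at 437.5 TPM in SW480 against 3.13 to 6.37 TPM in SW620, and FBP1 is at 12.6 and 11.2 TPM in SW620-TET2CD against 4.35 and 2.79 TPM in SW620 on day 15.

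Other genes of sugar metabolism, from lists chosen by function, went down more often than up between early and late single-cell libraries. Of 27 tested genes of the rest of glycolysis and pyruvate metabolism, 6 were higher and 14 lower, with a median log2 fold change of -0.41. The lower ones included the mitochondrial pyruvate carrier genes MPC1 (-1.50) and MPC2 (-0.72), the pyruvate dehydrogenase complex genes DLAT (-0.84) and DLD (-0.89), pyruvate carboxylase PC (-0.93), TIGAR (-0.93), which lowers fructose 2,6-bisphosphate, BSG (-1.01), the partner of the lactate transporters, and the sugar transporter SLC2A8 (-1.14). The higher ones included LDHD (2.25), the D-lactate dehydrogenase, and the sugar transporters SLC2A12 (1.41) and SLC2A10 (1.17). In the pentose phosphate pathway, 7 of 10 were lower and 1 higher, with PGD, which forms NADPH, at -1.09 and the transaldolase gene TALDO1 at -0.99. Of 11 tested glycogen genes 4 were higher and 4 lower, with the branching enzyme GBE1 at 0.86 and the synthesis regulator PPP1R3B at 1.44. All of these are read against the 29.4% of all genes called higher and 28.3% called lower. In the comparison of lines, 1 of these genes was called, PDP1, a phosphatase that reactivates pyruvate dehydrogenase, which was higher in SW620-TET2CD (0.53, adjusted p = 0.013), where 2.48% of all genes were higher and 1.84% lower.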

How the data were processed

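Single-cell RNA-seq (10x Genomics 3′ kit, v3.1) and bulk RNA-seq (TruSeq) were analysed from the deposited tables. The deposited single-cell matrices hold UMI counts per gene and barcode, made by the authors with Cell Ranger 4.0 on GRCh38. The deposited bulk tables hold expected counts and TPM per gene from RSEM with Bowtie (versions not given in the sources used here), and the submitters' notes name a mouse build although the identifiers are human, so bulk coordinates were not used. Gene positions came from GENCODE (GRCh38), matched by Ensembl identifier.

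Barcodes were kept when they had 200 to 4500 detected genes, 1000 to 20000 UMIs and no more than 10% of UMIs from mitochondrial genes. Doublets were not called, and 1 alternative dropped the top 8% of cells by UMIs. UMIs were summed per library and tested with edgeR 4.0.16 (quasi-likelihood, TMM, two-sided, Benjamini-Hochberg over all tested genes, threshold 0.05) in R 4.3.3. All 8 libraries shared 1 estimate of spread. Expected counts (16477800 to 25854100 per library) were rounded to whole numbers first, and the 45 identifiers of the second copy of the pseudoautosomal genes were left out. Bulk pairs without replicates used log2(TPM + 1). DESeq2 1.42.0, no filter on low counts, upper-quartile factors, other cell filters, no block and leaving out each library were the alternatives, and the bulk libraries left out in turn, without the block, were added after seeing the data. Intervals and floors (3 UMIs) cover counting error only. The scripts were tested on simulated data, where the late versus early test recovered 75% of 2-fold and 97.7% of 4-fold changes.

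The 34 members and the other lists were chosen with earlier results of these data known. Values in every library are given for members that changed at least 2-fold in the late versus early test or a day step, that were called in a comparison of lines or places, or whose isozyme pair changed order, and the rest are given by ranges and counts.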

Additional observations from a re-analysis of the deposited data

Results flagged for a closer look

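In 2 of 68 sets of 4 libraries looked at (34 genes, early and late) 1 library stood apart from the other 3 by Dixon's ratio, where chance gives about 1 in 20. ENO1 was at 1208 CPM in SW620-TET2CD on day 9, the lowest of the 4 early libraries, against 1441 to 1479 CPM in the other 3. SLC16A3 was at 151.7 CPM in SW620 on day 9, the highest of the 4 early libraries, against 113.6 to 116.1 CPM in the other 3.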

How the results depend on the processing

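Of the 21 calls between early and late libraries, 14 kept their direction and their side of the threshold in all 17 alternatives, and the number of calls was 16 to 22 with 1 library left out. The fits had line or day as a block, and beyond these blocks no paired analysis was possible because the replicate numbers only name the libraries, 1 per line and day. The comparison of lines (2 calls) gave 3 with DESeq2, no filter on low counts or every barcode, where SLC2A1 was also lower, 1 without the 8% of cells with most UMIs, 0 without the day block and 1 to 2 with a library left out. The step from day 6 to day 9 (0 calls) gave 4 without a filter on low counts. That setting called 978 of 26937 genes in all, against 155 of 17478 in the main fit. The step gave 1 with DESeq2 (356 of 14403), upper-quartile factors (224 of 17478) or every barcode (479 of 18584). The step also gave 1 with no upper limits (209 of 18395) or a mitochondrial limit of 20% (340 of 17960). With a library of day 12 or day 15 left out it gave 0 to 5. The step from day 9 to day 12 (17 calls) gave 20 with upper-quartile factors and 11 to 19 with a library left out (11 without SW620-TET2CD day 9). The step from day 12 to day 15 (3 calls) gave 13 without a filter (3320 of 26937 genes in all), 7 with upper-quartile factors (2365 of 17478), 6 with every barcode (3378 of 18584) and 1 to 10 with a library left out. In bulk, location (0 calls) gave 1 without a filter (472 of 31544 genes in all). Line (0 calls) gave 6 with DESeq2 (703 of 15643) and 9 without a filter (2239 of 31544). Bulk fits with a library left out kept 1 library in a group. The cell-cycle comparison (20 calls) gave 25 with upper-quartile factors (12 higher, 13 lower), 9 with at least 1 UMI and no limit on the share, where PDK3 turned to -0.0475, and 18 to 22 with a library left out. With CPM and TMM factors in place of TPM, 2 genes in place of 4 were higher in SW480, 1 in place of 4 lower inside the colonies on day 15, and outside them 2 in place of 3 were higher and 0 in place of 1 lower, where a pseudocount of 0.1 gave 2 lower. LDHA, not called late, turned to -0.0162 with every barcode and ranged from -0.26 to 0.20 with a library left out. Of the isozyme ratios, HK2 over HK1 ranged from -0.0312 to 0.28, PFKM over PFKL from -0.17 to 0.18 and SLC2A3 over SLC2A1 from -0.41 to 0.00425. The cause was not tested for any of these. With 1 library per line and day, changes under 2-fold, low genes such as PDK4, and differences between the lines in the late change were not well measured. In the simulated data, 58.7% of 2-fold changes between bulk locations were recovered, against 75% in the late versus early test.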
